A study of Mus musculus with 3 samples.

Results

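Cell cycle and proliferation genes were examined in sorted cells of the mouse leptomeninges, the arachnoid and pia that wrap the brain. The set held 40 genes, chosen by symbol from a list of replication, mitosis, cyclin and cell cycle inhibitor genes, out of 46983 gene rows in the deposited count table, and each symbol stood on 1 row. RNA came from 3 samples of 1 group, vehicle-treated mice, from which the pia-enriched fraction had been microdissected, dissociated and sorted by flow cytometry. The substance that the vehicle accompanied, the strain, genotype, age and sex of the mice, any pooling of animals and the sorting gate were not given in the labels used here. With 1 group there was no contrast between conditions, so the values below are levels and their spread between the 3 libraries, numbered as in the labels. Nothing in the labels states that the libraries came from separate animals, and p-values therefore measure only the spread between these samples, which may be technical.

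As background, a dividing cell passes through a fixed series of steps that are driven by cyclins and the kinases they activate. D-type cyclins with CDK4 and CDK6 act in G1, phosphorylate the retinoblastoma proteins and release E2F factors, which switch on genes for DNA replication. Genes for mitosis come on later, when the MuvB complex with B-Myb and FoxM1 binds their promoters, and the same MuvB core with p130 and E2F4 (the DREAM complex) keeps them off in resting cells. Inhibitors such as p21, p27 and the INK4 proteins block the kinases, and p53 induces p21 after stress. Fibroblasts of adult tissue are mostly resting cells.

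Libraries 1, 2 and 3 held 21002860, 28704952 and 25338616 gene counts. Levels are in CPM, counts relative to library sizes that were scaled by the trimmed mean of M-values (TMM). As a limit for a count of 0, 3 counts were taken, which were 0.152, 0.101 and 0.116 CPM. Library 1 stood apart: its log2(CPM + 1) correlated with libraries 2 and 3 at a Pearson r of 0.933 and 0.941 across the 14409 genes tested, against 0.975 between libraries 2 and 3. Its log2 ratio against libraries 2 and 3 followed GC content across genes (Spearman 0.607, 14375 genes). Mitochondrial genes took 0.918% of its counts, against 3.60% and 3.46% in libraries 2 and 3, and reads given to no gene were 45.6% of its total, against 39.1% and 39.6%. The 5 fibroblast markers summed to between 21313 and 24784 CPM, led by Col1a2 and Col1a1. Markers of other cells were present too. The macrophage and microglia list summed to 12.7, 248 and 733 CPM in libraries 1, 2 and 3, and 8 of its 8 genes were lowest in library 1. The choroid plexus epithelium list summed to 91.2, 3185 and 4867 CPM, with 5 of 5 lowest in library 1. The B lineage list without Ebf1, which mesenchymal cells also express, summed to 3.79, 64.2 and 74.8 CPM, with Ms4a1 at 0 counts in library 1. The erythroid list was highest in library 1 at 748 CPM, against 185 and 312 CPM. The mural list (2738 to 4863 CPM), the Schwann cell list (1831 to 3002 CPM) and the oligodendrocyte precursor list (168 to 253 CPM, nearly all from Cspg4) were highest in library 3. The endothelial list (63.2 to 79.5 CPM), the T cell list (3.86 to 5.40 CPM, with Cd3e, Cd3d and Cd3g at 0 to 12 counts) and the neutrophil list (2.32 to 4.86 CPM) were low.

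Levels per kilobase of exon, the scale on which genes of different length can be compared, spread widely over the members. Some regulators of G1 and of cell cycle arrest were the highest, others (Cdk6, Cdkn2a) were among the lowest, and the genes of mitosis were low. The mean level per kilobase was highest for Cdkn1a at 114 ± 68.3 CPM per kilobase (SD, n = 3), at percentile 96.9 of the genes tested. Cdk4 followed at 71.6 ± 19.8, Trp53 at 48.2 ± 16.3, Ccnd2 at 41.6 ± 3.25 and Pcna at 32.2 ± 4.63 CPM per kilobase. Cdkn1a and Cdk4 differed by less than the SD of Cdkn1a, and Trp53 and Ccnd2 by less than the SD of Trp53. At the other end Cdkn2a was at 0.0439, Cenpf at 0.167 ± 0.129, Ccna2 at 0.196 ± 0.161, Cdk6 at 0.25 ± 0.15 and Bub1 at 0.265 ± 0.231 CPM per kilobase. The median log2(CPM + 1), a level not divided by length, was 7.24 ± 0.22 for the 5 G1 cyclins and kinases and 5.40 ± 0.09 for the 5 inhibitors and p53. It was 4.10 ± 0.19 for the 11 genes of replication and nucleotide supply, 2.30 ± 0.54 for the 4 S phase cyclins and their kinase, and 1.88 ± 0.86 for the 15 mitosis genes. The median of all genes tested was 4.19 ± 0.12.

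**Figure D1:**
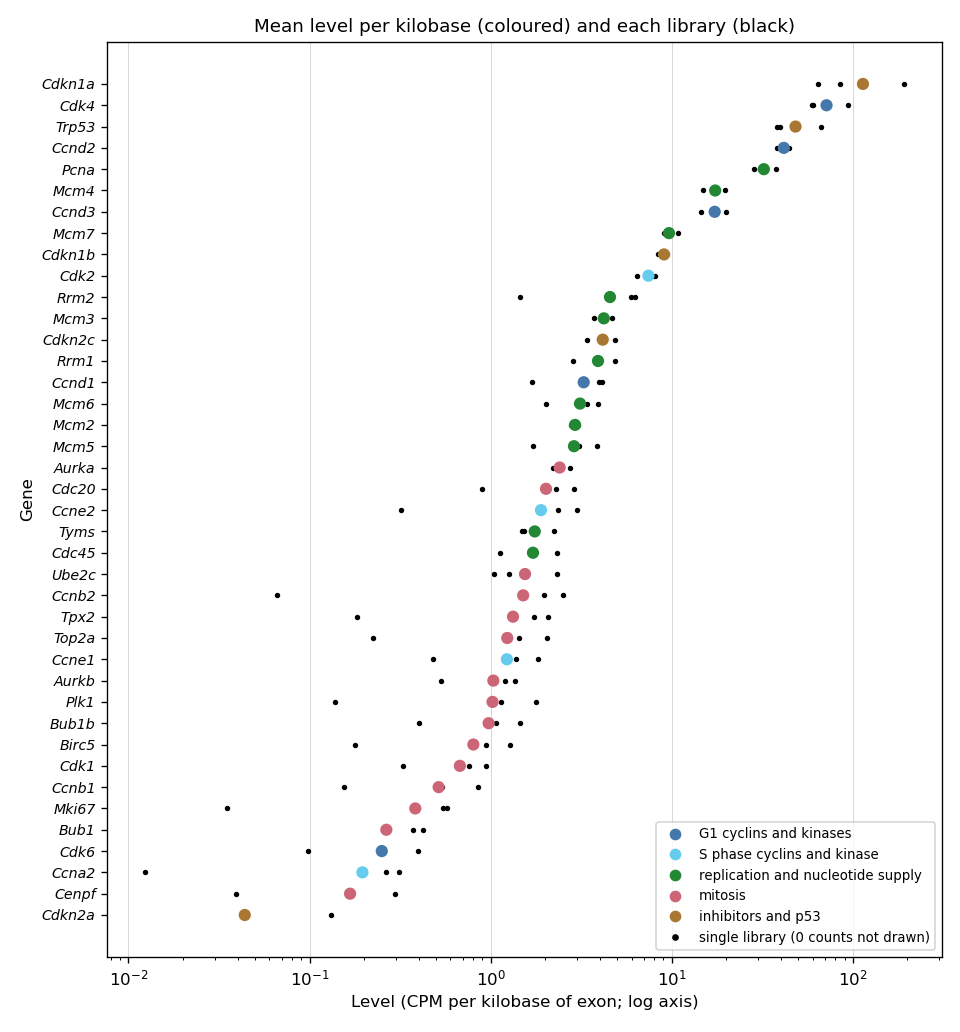
Mean level of each of the 40 genes in CPM per kilobase of exon on a log axis (coloured by role), with the level in each library as small black points; libraries with 0 counts are not drawn. Cdkn1a, Cdk4, Trp53, Ccnd2 and Pcna lie at the top, and 15 mitosis genes lie at or below the 2.40 CPM per kilobase of Aurka.

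Spread between libraries was tested with edgeR's goodness-of-fit test over all genes. Its p-values were adjusted after Benjamini and Hochberg and called below 0.05. It called 63 of 14409 genes (0.437%), most of them lower in library 1 (0.403% of the genes tested). Of the 40 members 34 passed the filter on low counts and 0 were called. The 6 that did not pass were Ccna2, Mki67, Ccnb2, Bub1, Plk1 and Cdkn2a, and 5 of these had too few counts in library 1 alone. With a filter on a mean of 10 counts in its place, 39 members were tested, all but Cdkn2a, and again 0 were called, where 182 of 16392 genes were (1.11%, of which 0.964% lower in library 1). At an unadjusted p below the threshold there were 7 of 34 members (Ccne2, Rrm2, Top2a, Birc5, Cenpf, Tpx2 and Cdkn1a), against 7.04% of all genes, and 9 of 39 with the other filter, against 8.46%. With DESeq2's trend dispersion 0 members were called, against 0.507% of all genes. The differences between libraries described below are therefore values that did not pass the test, which does not show that the libraries were alike. Library 1 was lowest in 26 of 40 members and highest in 8, against 40.4% and 39.6% of all genes tested. It lay below the others by more than 1 on the log2 scale in 16 of 40 members and above by more than 1 in 1, Cdkn1a, against 11.8% and 3.61% of all genes tested. These shares are over genes past the filter, whereas the 40 members include the 6 that did not pass. Of those 6, 5 had too few counts in library 1 alone, so members and shares are not strictly alike.

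**Figure D2:**
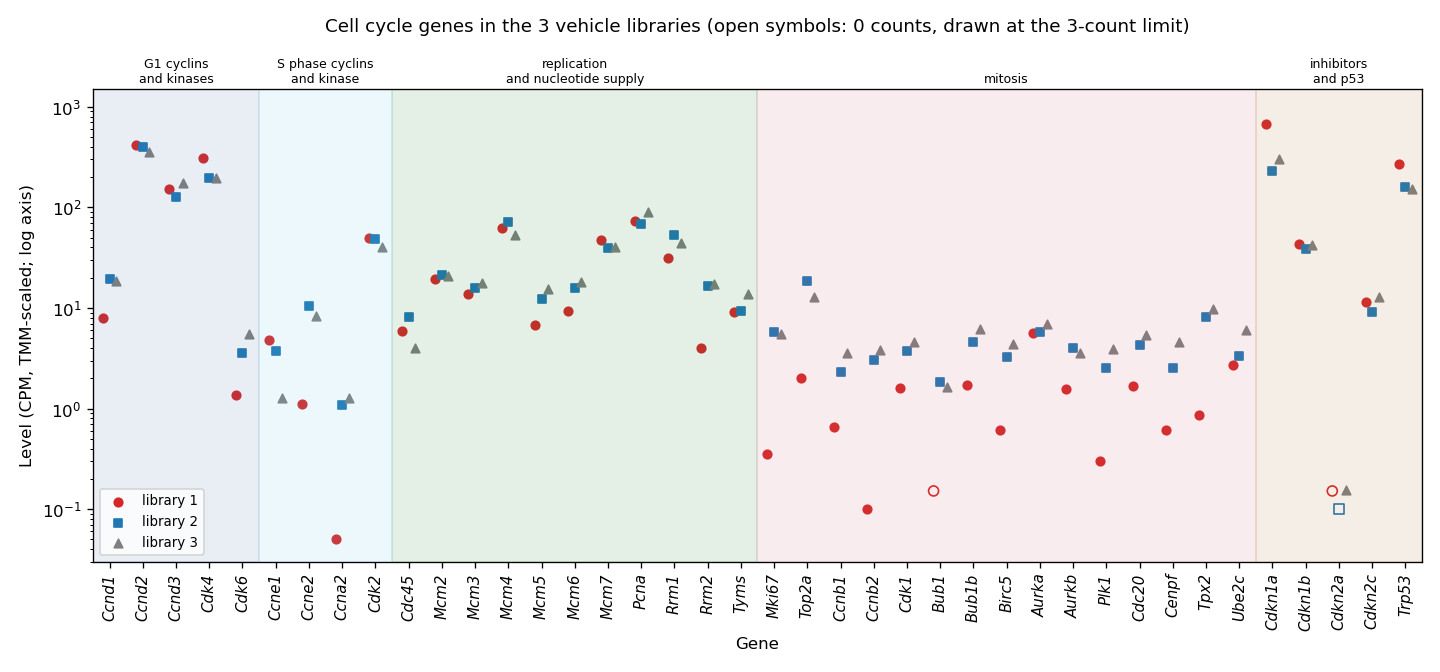
Level of each gene in CPM (TMM-scaled, log axis) in library 1 (red circles), library 2 (blue squares) and library 3 (grey triangles), by role; open symbols are 0 counts drawn at the 3-count limit. The 3 symbols lie close together for Mcm2, Mcm4, Pcna, Cdk2 and Cdkn1b, whereas for 15 of 15 mitosis genes library 1 is the lowest.

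Among the G1 genes, the cyclin D2 gene was the main D-type cyclin. Ccnd2 (ENSMUSG00000000184.12, on chromosome 6 from 127125162 to 127152193) was at 417, 399.5 and 357 CPM in libraries 1 to 3, with a coefficient of variation of 7.82%. Ccnd3 was at 152, 128 and 174 CPM and Ccnd1, the cyclin D that mitogens induce most strongly in many fibroblasts, at 7.98, 19.4 and 18.7 CPM. Per kilobase the order Ccnd2 (41.6 ± 3.25), Ccnd3 (17.3 ± 2.66) and Ccnd1 (3.26 ± 1.36 CPM per kilobase) held in 3 of 3 libraries. Of the exon bases of Ccnd1 23.4% are shared with a gene on the opposite strand, and since the strand setting of the counting is not given, its level is uncertain. The same holds for Ube2c (22.8%), Cdk4 (19.7%), Ccne2 (17.4%), Mcm7 (12.6%) and Ccna2 (12.5%), which share exon bases with other genes.

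The kinases that D-type cyclins activate were unequal as well. Cdk4 (ENSMUSG00000006728.12, chromosome 10, 127063534 to 127067920) was at 307, 196 and 194 CPM, highest in library 1. Cdk6, its close relative, was at 1.36, 3.60 and 5.55 CPM. Per kilobase Cdk4 was at 94.4, 60.5 and 59.8 and Cdk6 at 0.0975, 0.257 and 0.397 CPM per kilobase. The 2 ranges were far apart in each library.

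The E-type and A-type cyclins, which activate CDK2 at the start of and during S phase, were low, and the kinase itself was not. Cdk2 was at 50.0, 48.6 and 40.1 CPM. Ccne1 was at 4.85, 3.70 and 1.27 CPM, lowest in library 3, and Ccne2 at 1.11, 10.5 and 8.25 CPM, lowest in library 1. The closely related E-type genes thus ordered the libraries differently. For Ccne2 edgeR's goodness-of-fit test gave an unadjusted p of 0.00342 and an adjusted p of 0.228, with a GC content of 36.3%. Its log2 ratio of library 1 against the rest was -2.30, and -0.91 once trends in GC and exon length had been taken out. Ccna2 had 1, 32 and 33 counts, or 0.0505, 1.08 and 1.27 CPM. The ratio of library 2 to library 1 for Ccna2 was 21.3, with a 95% counting interval of 3.56 to 867.

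Genes of DNA replication and nucleotide supply were present in every library, some at nearly level values and others, Rrm2 above all, uneven. The MCM proteins form the ring that unwinds DNA, and they are loaded onto DNA in G1, before replication begins. Mcm2 was at 19.2, 21.1 and 20.7 CPM, Mcm4 at 62.9, 71.0 and 53.2 CPM and Mcm7 at 47.8, 39.9 and 40.5 CPM. Mcm3 was at 13.9, 15.9 and 17.6 CPM. Mcm5 (6.82, 12.2 and 15.5 CPM) and Mcm6 (9.40, 15.9 and 18.3 CPM) were lower in library 1. These 6 subunits work in equal numbers in the ring, yet their mean levels per kilobase ranged from 2.88 ± 1.10 for Mcm5 to 17.4 ± 2.48 CPM per kilobase for Mcm4. Mcm4 and Mcm7 (9.65 ± 0.994 CPM per kilobase) lay above the other subunits by more than their spread.

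Pcna, the sliding clamp of DNA polymerase that also serves in DNA repair, was at 73.5, 68.7 and 89.9 CPM. Cdc45, which joins the MCM ring to make the active helicase, was at 5.91, 8.13 and 3.97 CPM. Ribonucleotide reductase makes the building blocks of DNA, and its subunits behaved unequally. Rrm1, the large subunit, was at 31.3, 53.6 and 44.5 CPM, whereas Rrm2, the small subunit that is made in S phase, was at 4.04, 16.5 and 17.4 CPM. Rrm2 in libraries 2 and 3 was 4.07-fold and 4.30-fold above library 1 (edgeR goodness of fit, adjusted p = 0.56). Tyms, thymidylate synthase, was at 9.04, 9.34 and 13.6 CPM. Of the 11 genes of this group 7 were lowest in library 1, and 5 with the GC and length trends taken out. The group summed to 284, 332 and 335 CPM.

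The 15 mitosis genes were low throughout and lowest in library 1 in every case. For Aurka, and for Ube2c against library 2, this rank was within counting error. The 15 genes summed to 20.4, 73.5 and 82.7 CPM, or 7.19%, 22.1% and 24.7% of the sum of the replication group in the same library. Library 1 was the lowest for 15 of 15, against 40.4% of all genes tested and 46.6% of the 5138 genes whose mean CPM lay in the range of these 15. It was also lowest for 15 of 15 with the GC and length trends taken out, against 36% of all genes tested. All genes tested had passed the filter on low counts, but only 11 of the 15 had, so these are not strictly alike. The 46.6% is over genes chosen by mean CPM alone. Their median log2 ratio of library 1 against libraries 2 and 3 was -1.45, and -1.30 with the trends removed, beside -0.02 over all genes tested. Libraries 2 and 3 lay within 2-fold of each other for 15 of 15, as they did for 90.8% of all genes tested. In bulk samples, fewer dividing cells, less RNA per dividing cell and technical spread between the libraries cannot be told apart.

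Of the markers most used for dividing cells, Mki67 (ENSMUSG00000031004.7, chromosome 7, 135689784 to 135716361), which encodes the Ki-67 antigen, had 7, 171 and 142 counts, or 0.354, 5.75 and 5.48 CPM. Library 2 was 16.2-fold above library 1, with a 95% counting interval of 7.72 to 41.0. Top2a (ENSMUSG00000020914.17, chromosome 11, 98992943 to 99024189), the topoisomerase that untangles sister chromatids, was at 2.02, 18.5 and 12.9 CPM, with an adjusted p of 0.164 in edgeR's goodness-of-fit test. Libraries 2 and 3 were close for both genes and library 1 was low.

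The kinase and cyclins that start mitosis were Cdk1 at 1.62, 3.76 and 4.63 CPM, Ccnb1 at 0.657, 2.29 and 3.59 CPM, and Ccnb2 with 2, 90 and 99 counts, or 0.101, 3.02 and 3.82 CPM. The ratio of library 2 to library 1 for Ccnb2 was 29.9, with a 95% counting interval of 8.05 to 251. In libraries 2 and 3 Cdk1 was 2.33-fold and 2.86-fold above library 1, less uneven than Ccnb2. Ccnb1 was 3.48-fold and 5.46-fold above library 1, with 95% counting intervals that overlapped those of Cdk1. With the GC and length trends removed, the log2 ratio of library 1 to the others was -0.82 for Cdk1 and -0.74 for Ccnb1.

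The mitotic kinases differed among themselves. Aurka, which builds the spindle poles, was nearly level at 5.61, 5.75 and 6.90 CPM. Its activator Tpx2 was at 0.859, 8.06 and 9.72 CPM, 9.39-fold and 11.3-fold above library 1. Tpx2 had an adjusted p of 0.163 in edgeR's goodness-of-fit test, and it was called with the common dispersion, as were 0.59% of all genes, and with the GC and length trends taken out, as were 0.68%. With the trends taken out and the filter on a mean of 10 counts together it was not called, and 0 of 39 members were, against 1.38% of all genes. Aurkb, the kinase of the chromosomal passenger complex, was at 1.57, 4.03 and 3.55 CPM, and Birc5 (survivin), of the same complex, at 0.606, 3.23 and 4.36 CPM. Plk1 had 6, 75 and 102 counts, or 0.303, 2.52 and 3.93 CPM.

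The spindle checkpoint holds cells in metaphase until each chromosome is attached. Of its genes, Bub1 had 0, 55 and 42 counts, so that libraries 2 and 3 were 12.2-fold and 10.7-fold above the 3-count limit of library 1. These ratios leave out the counting error of libraries 2 and 3. Bub1b was at 1.72, 4.57 and 6.21 CPM, and Cenpf, a kinetochore protein, at 0.606, 2.55 and 4.59 CPM. Exit from mitosis needs Cdc20 (1.67, 4.30 and 5.36 CPM) and Ube2c (2.73, 3.29 and 6.05 CPM), which work with the anaphase-promoting complex. Ube2c in libraries 1 and 2 did not differ beyond counting error, with a ratio of 1.21 and a 95% interval of 0.857 to 1.72. Over the 15 genes, library 1 against the others ranged on the log2 scale from -2.47 for Top2a to -0.15 for Aurka.

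**Figure D3:**
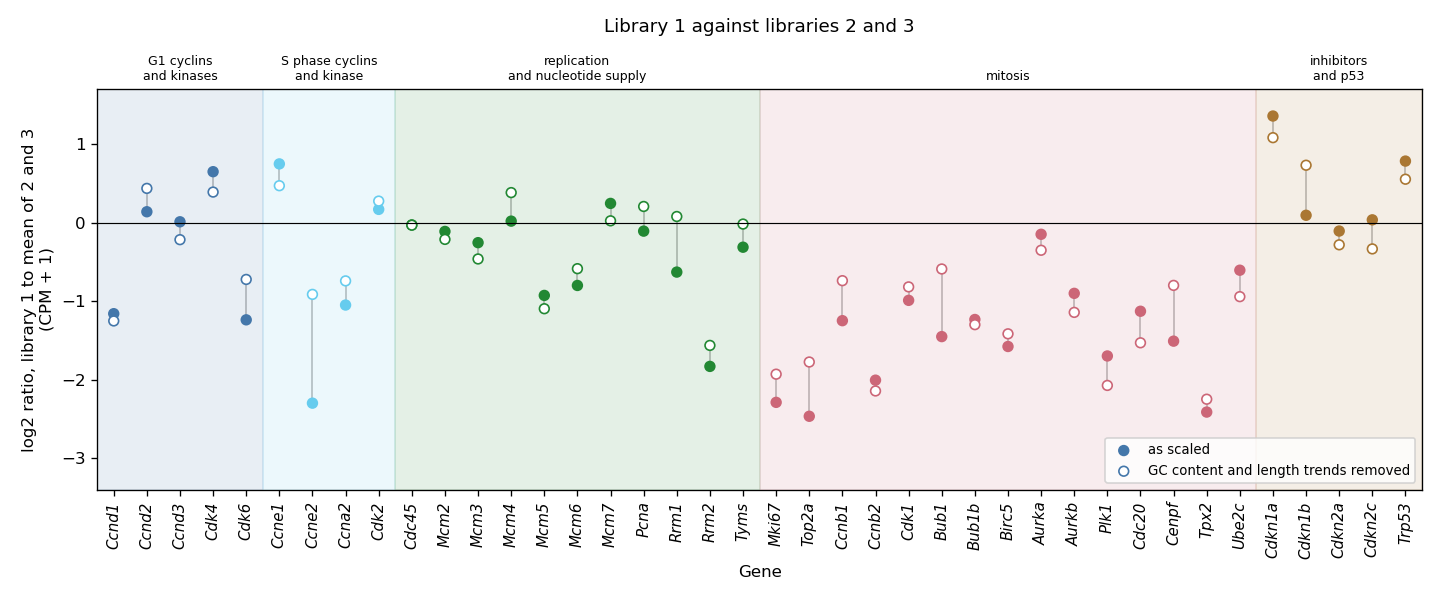
Library 1 against the average of libraries 2 and 3 for each gene as a log2 ratio, on CPM + 1, as scaled (filled) and with the trends in GC content and exon length removed (open). The 15 mitosis genes lie below 0 in both, from -2.47 for Top2a to -0.15 for Aurka as scaled, whereas Cdkn1a at 1.36 is the highest of the 40.

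The macrophage and microglia, B lineage and choroid plexus lists were low in the same library as the mitosis genes. Of the 8 macrophage genes, 7 passed the filter and 7 were called, against 0.437% of all genes tested. C1qb was among them, at 1.62, 39.2 and 130 CPM (edgeR goodness of fit, adjusted p = 1.32e-09). On the choroid plexus list 2 of 4 tested were called, and on the B lineage list without Ebf1 also 2 of 4. Cd79a of the B lineage was at 1.21, 20.1 and 20.7 CPM (edgeR, adjusted p = 0.00971), while Vpreb1, Igll1, Rag1 and Dntt of B cell precursors had at most 70 counts in any library. Ttr of the choroid plexus was at 32.6, 1594 and 2530 CPM. Between libraries 2 and 3 the macrophage list went from 248 to 733 CPM and the choroid plexus list from 3185 to 4867 CPM. The B lineage list without Ebf1 went from 64.2 to 74.8 CPM and the mitosis genes from 73.5 to 82.7 CPM. The part of these cells, and of the lower mitochondrial share of library 1 (0.918%), in the levels of the mitosis genes was not tested.

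**Figure D4:**
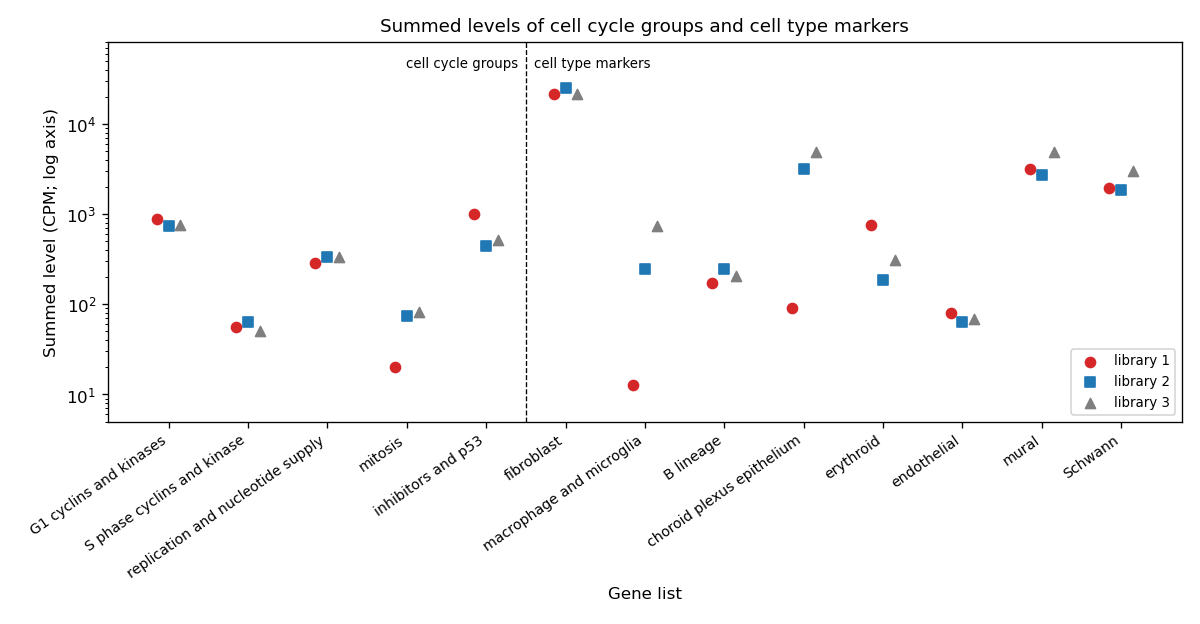
Summed CPM (log axis) of the 5 role groups and of 8 lists of cell type markers in library 1 (red circles), library 2 (blue squares) and library 3 (grey triangles). Library 1 is far below the others for mitosis (20.4 against 73.5 and 82.7 CPM), macrophages and choroid plexus, and above them for inhibitors and p53 (1007 against 438 and 510 CPM) and erythroid markers; the B lineage list is shown with Ebf1.

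Promoters of these genes were inspected because the mitosis genes were low in library 1 together, and because MuvB is known to bind a short element, the cell cycle genes homology region (CHR). The RefSeq promoter table for GRCm38.p6, from 250 bases before to 50 after a start site, held 33 of the 40 members. The CHR was searched as TTTGAA and TTCGAA, the CCAAT box as CCAAT and the E2F site as TTTCGCGC, TTTGGCGC and TTTCCCGC, each on both strands. A CHR stood in 11 of 13 promoters of mitosis genes (84.6%), against 21.7% of the 27025 genes in the table. The 11 also held a CCAAT box (84.6%), a pairing found in 8.61% of all genes. A CCAAT box alone did not set the groups apart, at 12 of 13 mitosis genes (92.3%) and 9 of 10 replication genes, against 41.1% of all genes. In the replication group 3 of 10 had a CHR (30%), each together with a CCAAT box. An E2F site stood in 4 of 10 replication genes (40%) and in 1 of 13 mitosis genes, Cdk1, against 2.12% of all genes. In the G1 group 0 of 3, among the S phase cyclins and kinase 0 of 2, and among the inhibitors and p53 0 of 5 had a CHR. Over the 11 mitosis genes with a CHR, the log2 ratio of library 1 to the others ranged from -2.47 (Top2a) to -0.15 (Aurka). Birc5 and Ccnb1, mitosis genes without a CHR, were at -1.58 and -1.25. The replication genes with a CHR, Cdc45, Mcm2 and Mcm7, were at -0.03, -0.11 and 0.24. Whether the motif goes with this ratio was not tested. A match of letters is a description and not evidence that a factor binds there.

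The sequences below are chosen examples of the motifs in the 250 bases before the start site. They are printed along the gene's strand with each matched motif in capitals. The first 5 are mitosis genes with at least 1 CHR, where ATTGG is the CCAAT box and TTCAAA the CHR on the other strand. Mcm6 is 1 of the 4 of 10 replication genes with an E2F site, and its E2F sites in capitals partly overlap.
Mki67 (chr7:135716380-135716629, minus strand): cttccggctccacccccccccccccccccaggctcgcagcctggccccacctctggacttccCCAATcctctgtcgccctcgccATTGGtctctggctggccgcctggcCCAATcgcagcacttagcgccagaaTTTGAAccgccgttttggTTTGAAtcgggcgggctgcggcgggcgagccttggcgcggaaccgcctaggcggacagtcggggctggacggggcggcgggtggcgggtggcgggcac
Top2a (chr11:99024190-99024439, minus strand): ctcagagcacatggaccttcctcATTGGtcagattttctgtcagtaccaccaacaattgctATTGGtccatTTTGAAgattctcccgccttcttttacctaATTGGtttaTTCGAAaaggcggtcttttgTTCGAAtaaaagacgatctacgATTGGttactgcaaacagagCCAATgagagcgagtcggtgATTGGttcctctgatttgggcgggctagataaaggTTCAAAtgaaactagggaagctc
Cdk1 (chr10:69352913-69353162, minus strand): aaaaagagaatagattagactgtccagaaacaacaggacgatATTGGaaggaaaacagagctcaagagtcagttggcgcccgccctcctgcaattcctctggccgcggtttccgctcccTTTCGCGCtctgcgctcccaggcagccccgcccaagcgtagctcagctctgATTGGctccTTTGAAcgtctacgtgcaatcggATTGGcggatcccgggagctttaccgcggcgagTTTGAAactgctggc
Cdc20 (chr4:118437344-118437593, minus strand): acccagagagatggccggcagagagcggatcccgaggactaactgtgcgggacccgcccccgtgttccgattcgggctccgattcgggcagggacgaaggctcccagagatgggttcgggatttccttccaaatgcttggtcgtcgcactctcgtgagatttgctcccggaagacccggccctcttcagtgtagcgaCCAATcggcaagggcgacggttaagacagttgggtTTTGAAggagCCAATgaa
Ube2c (chr2:164769679-164769928, plus strand): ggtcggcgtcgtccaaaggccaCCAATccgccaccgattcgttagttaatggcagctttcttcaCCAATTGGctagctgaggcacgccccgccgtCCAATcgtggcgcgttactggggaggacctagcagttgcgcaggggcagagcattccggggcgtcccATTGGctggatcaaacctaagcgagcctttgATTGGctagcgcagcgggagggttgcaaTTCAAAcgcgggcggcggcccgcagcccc
Mcm6 (chr1:128359706-128359955, minus strand): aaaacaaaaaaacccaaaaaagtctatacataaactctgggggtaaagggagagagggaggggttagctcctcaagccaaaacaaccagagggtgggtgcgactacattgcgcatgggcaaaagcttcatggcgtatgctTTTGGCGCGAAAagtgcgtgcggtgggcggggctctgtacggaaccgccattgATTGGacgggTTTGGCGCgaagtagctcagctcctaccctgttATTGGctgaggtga
Mki67 held its CHR matches 116 and 98 bases before the start, whereas that of Cdc20 lay 18 and that of Ube2c 29 bases before it.

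The inhibitors and p53 were the group in which library 1 stood highest. Cdkn1a (ENSMUSG00000023067.13, chromosome 17, 29090976 to 29100727), which encodes the CDK inhibitor p21, was at 681, 230 and 301 CPM, the highest CPM of the set in library 1. The log2 ratio of library 1 to the others was 1.36, and 1.08 with the GC content and length trends removed (edgeR goodness of fit, unadjusted p = 0.0258, adjusted p = 0.526). The mean of 404 CPM became 265 CPM without library 1, which moved it by over 1.5 times. Trp53 (ENSMUSG00000059552.13, chromosome 11, 69580359 to 69591873), which encodes p53, was at 271, 161 and 154 CPM. Both genes were higher in library 1 than in either other library, and libraries 2 and 3 were close.

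Of the other inhibitors, Cdkn1b, which encodes p27, abundant in resting cells, was the steadiest as scaled, at 43.1, 38.2 and 42.4 CPM. For Cdkn1b the log2 ratio of library 1 to the others was 0.09, but 0.73 with the GC content and length trends removed. Cdkn2c, which encodes the INK4 protein p18, was at 11.4, 9.14 and 12.99 CPM. Cdkn2a, which encodes p16 and ARF and is used as a marker of senescence, had 0, 0 and 4 counts. It was not detectable at this depth in libraries 1 and 2, where the 3-count limit was 0.152 and 0.101 CPM, and was at 0.154 CPM in library 3. Summed over the group the level was 1007, 438 and 510 CPM, of which Cdkn1a and Trp53 made the most.

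The promoter at the upstream start of Cdkn1a held a p53 element, searched by its usual consensus of 20 bases with at most 1 mismatch, a motif added after the sequences were seen. It was present in 1 of 33 members and in 0.0814% of all genes in the table, and in 1 of the 12 p53 target genes found there. The element is in capitals, 51 bases before this upstream start. The other Cdkn1a promoter in the table, at chr17:29093519-29093768, held 0 matches to any motif searched.
Cdkn1a (chr17:29090729-29090978, plus strand): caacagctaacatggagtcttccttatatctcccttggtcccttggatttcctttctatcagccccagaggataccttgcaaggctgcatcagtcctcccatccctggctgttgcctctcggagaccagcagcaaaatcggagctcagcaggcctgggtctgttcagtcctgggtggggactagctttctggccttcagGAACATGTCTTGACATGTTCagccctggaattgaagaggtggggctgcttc

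Further genes of the pathway, 103 on 7 lists, gave the surroundings of the set. Of these 90 passed the filter, 1 was called (against 0.437% of all genes) and 10 had an unadjusted p below the threshold (against 7.04%). The called gene was Orc4 of the origin recognition complex, at 5.41, 50.9 and 51.1 CPM (edgeR goodness of fit, adjusted p = 0.0117), with a GC content of 36.8%; its log2 ratio of library 1 to the others was -3.02, and -1.63 with the trends removed. The 29 other replication genes were mixed, with Gins4 (21.7 ± 4.03), Rpa3 (13.5 ± 1.65) and Orc6 (12.6 ± 0.965 CPM per kilobase) the highest. On this list 20 of 30 genes were lowest in library 1.

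Among 26 further mitosis genes 24 were lowest in library 1, with a median log2 ratio of -1.13, and 20 with the trends removed (median -0.61). The share is to be read beside the 40.4% and 36% of all genes given above. Those shares are over genes past the filter, which 18 of these 26 passed, so the values are not strictly alike. Most of the 26 genes were low. Cks2 was at 3.69 ± 0.28 CPM per kilobase, above the highest of the 15 members, and Mad2l1 at 1.64 ± 0.883 CPM per kilobase. Pttg1, which encodes securin, the inhibitor of sister chromatid separation, stood apart from them at 189, 103 and 110 CPM (67.1 ± 23.9 CPM per kilobase) and was highest in library 1. Without Pttg1 the list summed to 38.3, 116 and 113 CPM.

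Genes for the E2F, pocket protein and MuvB factors named in the background were present at uneven levels, and binding of the factors was not measured. Of the E2F factors and pocket proteins, E2f4 (7.68 ± 1.40), which acts in the DREAM complex, its partner Tfdp1 (5.25 ± 1.36) and E2f5 (3.31 ± 1.51 CPM per kilobase) led the list. On it 0 of 12 tested were called, against 0.437% of all genes. The pocket protein p130 gene Rbl2 was at 17.3, 26.9 and 23.1 CPM. Of the MuvB core, Rbbp4 (30.4 ± 5.14), Lin37 (20.8 ± 6.36) and Lin52 (6.47 ± 0.999 CPM per kilobase) led, whereas its activating partners were low. Mybl2 (B-Myb) was at 0.707, 0.470 and 0.810 CPM and Foxm1 at 0.152, 1.81 and 1.23 CPM. Rbl2, Mybl2 and Foxm1 were named after their values were seen.

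Of the other inhibitors of cyclin-dependent kinases, Cdkn2d was at 93.4, 47.9 and 56.6 CPM and Cdkn1c, the p57 gene, at 47.2, 45.7 and 29.1 CPM. Cdkn2b, next to Cdkn2a in the genome, had 4, 28 and 22 counts, and 0 of the 2 tested on this list were called. Among 17 p53 target genes 0 of 16 tested were called. Both counts stand against 0.437% of all genes. For the p53 targets library 1 was lowest in 7 of 17 and highest in 6 of 17, near the 40.4% and 39.6% of all genes tested. Btg2 was at 308, 289 and 215 CPM, Bax at 114, 59.7 and 69.5 CPM and Ccng1 at 49.7, 173 and 172 CPM. Bax and Ccng1 lay on opposite sides, with library 1 high for the first and low for the second, and their GC contents were 63.5% and 40.8%. Their log2 ratios of library 1 against the rest were 0.81 and -1.78, and 0.35 and -0.92 with the GC and length trends taken out.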

How the data were processed

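RNA from 3 pia-enriched samples was amplified from 2 ng per sample with a low-input template-switching kit and sequenced as paired reads, per the labels' protocols. The values used are counts per gene as deposited by the authors. The labels call the table normalized, but its values are whole numbers with unequal totals and were taken as raw. HTSeq 0.5.3, DESeq2 1.22.1 and the build mm10 are named without roles in the submitters' processing notes; the aligner and strand setting are not given in the sources used here. Of each library's total, reads that the counter gave to no gene (39.1% to 45.6%) were left out. No sample column was unused (0).

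TMM scaling used edgeR 4.0.16 (R 4.3.3), and low genes were removed by filterByExpr (minimum count 10). The quasi-likelihood test has no contrast with 1 group, so edgeR's goodness-of-fit test was run with trended dispersion. That test and the GC and length correction (splines of 5 degrees of freedom) were tested on simulated data. Ratios were taken on log2(CPM + 1), which shrinks those of low genes. Counting intervals are exact binomial (95%). They and the 3-count limit cover counting error only, since amplified reads are not independent molecules. Exon lengths and coordinates came from GENCODE M21 (GRCm38) by identifier (46488 of 46983). Of the 40 members, 15 share exon bases with another gene.

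The members and lists were chosen with earlier results of these data known. The text names every member, the 3 genes of each pathway list highest per kilobase, called genes of those lists and leading markers. Alternatives were other scalings (DESeq2 1.42.0), filters, dispersions and pseudocounts, and leaving out each library.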

Additional observations from a re-analysis of the deposited data

How the results depend on the processing

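The count of members called variable (0) was 1, Tpx2, with the common dispersion and 1, Tpx2, with the GC content and length trends removed, where 85 and 98 of 14409 genes were called. It was 0 with the trends removed and the mean filter together (227 of 16392 genes), a setting chosen after seeing the data. It was from 0 to 0 with any 1 library left out, where 27 (without library 1), 29 (without library 2) and 13 genes (without library 3) were called. All 40 members kept their mean CPM within 1 SD under both other scalings. Without library 1 the mitosis sum went from a mean of 58.8 to 78.1 CPM and that of the inhibitors and p53 from 652 to 474 CPM. By construction, median log2 levels moved with the unit. Per kilobase they were 4.18 (G1), 1.24 (S phase), 2.21 (replication), 0.88 (mitosis) and 3.33 (inhibitors and p53). With a pseudocount of 5 they were 3.23 (S phase), 4.40 (replication), 2.98 (mitosis) and 5.53 (inhibitors and p53). With members past the filter only they were 3.09 (S phase) and 6.48 (inhibitors and p53), since fewer genes entered. The mitosis median for library 1 against the others (log2) kept its sign throughout, at -2.38 with a pseudocount of 0.1 and -0.61 with 5; that of library 3 was 0.41 with a pseudocount of 5. Medians near 0 changed sign. For library 1 they were -0.12 (G1) and -0.031 (inhibitors and p53) with plain totals, and -0.22 (G1) with the trends removed. For library 2 the G1 median was -0.21 with the trends removed. For library 3 they were -0.046 (S phase, pseudocount 5), -0.0020 (S phase, trends removed) and -0.24 (inhibitors and p53, trends removed); the cause was not tested. No paired analysis was possible because all samples belong to 1 group. Depth limited Cdkn2a, Bub1, Ccna2 and Ccnb2, which had 0 to 2 counts in library 1.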

Other observations

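Genes that hold cells out of division, apart from the inhibitors of the kinases, were all above 1 CPM on average. Of 6 growth arrest genes 6 were tested and 0 called, against 0.437% of all genes, a share at which so short a list can hold no call. Tob2 of the BTG and TOB family was at 311, 226 and 160 CPM, and Gas1, a membrane protein first known from arrested fibroblasts, at 74.6, 131 and 92.1 CPM. Tob1 was at 18.3, 29.2 and 24.4 CPM. Per kilobase these were 34.9 ± 11.4, 33.5 ± 9.66 and 10.5 ± 2.39 CPM per kilobase (SD, n = 3), with the first 2 not separated beyond their spread. Library 1 against the others had a median log2 ratio over the list of -0.18, beside -0.02 over all genes tested.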
